A study of Danio rerio with 15 samples.

Results

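Among 35117 zebrafish genes counted in sorted mpeg1-GFP+ cells, 104 differed between 2 juvenile ages in both control and csf1rDM fish, and they are described here gene by gene and then in il34 fish, which took no part in choosing them. The 104 genes were chosen by their measured values. Read counts were divided by the library total and scaled to a library size of 1000000 (CPM), and a gene was kept when all 6 control and csf1rDM fish at 1.5 months post fertilization (mpf) lay above, or all 6 lay below, the 6 fish at 33 days post fertilization (dpf). The age with the higher mean also had to reach a mean of 10 CPM, and the ratio of the means between the ages, with 1 added to each, had to be at least 2 in the control fish and in the csf1rDM fish, in the same direction. Of 10805 genes that reached the level, 63 were higher and 41 lower at 1.5 mpf under these conditions. Each age difference of the 104 genes below is therefore a description, and nothing is read from a test of it.

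Single juvenile fish were dissociated whole, GFP+ cells were sorted and each fish gave 1 RNA-seq library, with 3 fish in each of 5 groups. The il34 fish, homozygous for il34 re03 in the tg(mpeg-GFP) reporter line, were collected at 1.5 mpf only. The csf1rDM fish were homozygous for csf1ra j4e1 and csf1rb re01 in the same reporter line. The control fish were wild type apart from reporter transgenes. Both groups were collected at 1.5 mpf and at 33 dpf. For its control animals the paper names a line with an mCherry transgene beside the mpeg1 reporter. It does not state whether the mutants carried that transgene. The titles of the older samples say 5 months whereas their stage label says 1.5 mpf, and 1.5 mpf is used here. Nothing in the labels gives the day or hour at which each age was sorted, so that age, sorting day and hour of collection cannot be told apart. In whole sorted pools, fewer cells of one kind and less RNA per cell cannot be told apart either. The comparison addresses which genes of the sorted cells shifted with age irrespective of csf1r, and whether fish without il34 showed the same levels.

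Libraries held 5488201 to 106374902 counted reads, the deepest being csf1rDM replicate 2 at 33 dpf. The pan-leukocyte gene ptprc was at 600 to 952 CPM over all groups and the leukocyte actin regulator CORO1A at 1330 to 2390 CPM, so that the sorted pools carried leukocyte transcripts throughout. Csf1ra was at 0 to 0.0328 CPM in csf1rDM fish at 1.5 mpf, against 107 to 192 CPM in control fish, and at 0 to 31.8 CPM in csf1rDM fish at 33 dpf, against 182 to 202 CPM in control fish. Il34 was at 6.28 to 20.2 CPM in il34 fish, against 10.7 to 20.9 CPM in control fish of the same age, and counts per gene do not resolve the mutated bases. Among 15 tested macrophage markers, which include no mpeg1 gene and hold several MFAP4 genes, none passed the age test over both genotypes. Over all tested genes 0.624% were called higher and 0.193% lower, so nothing is read from the lack of calls. By genotype none passed either, and the median was -0.39 in csf1rDM fish and 0.17 in control fish. The marker marco did not overlap between the ages in control fish, at 458 to 977 CPM at 1.5 mpf against 229 to 427 CPM at 33 dpf. In csf1rDM fish it was at 12.8 to 16.6 CPM and 0 to 69.8 CPM. At 1.5 mpf MPEG1 (ENSDARG00000055290) was at 3700 to 4810 CPM in il34 and 4020 to 7510 CPM in csf1rDM fish. Control fish were at 3030 to 3540 CPM. A further MPEG1 gene (ENSDARG00000043093) was at 0 to 34.4, 52.9 to 85.2 and 130 to 222 CPM in these groups in that order. At 33 dpf the first gene was at 5630 to 8400 CPM in csf1rDM and 2600 to 4280 CPM in control fish. The further gene was at 25.9 to 55.2 and 65.4 to 107 CPM. Liver transcripts, which sorted leukocytes should lack, summed to 36.7 to 52.2 CPM in il34 fish, 29.1 to 61.7 CPM in csf1rDM fish at 1.5 mpf and 305 to 3836 CPM in control fish at 1.5 mpf, against 1.78 to 37.9 CPM in csf1rDM fish and 5.10 to 36.6 CPM in control fish at 33 dpf. Markers of T and NK cells summed to 645 to 790.4 CPM in il34 fish, 699 to 921 CPM in csf1rDM fish and 770 to 837 CPM in control fish at 1.5 mpf, against 428 to 463 CPM in csf1rDM fish and 400 to 577 CPM in control fish at 33 dpf. The T and NK list shares cd4-1 with the list of metaphocytes, mpeg1-positive cells of the skin. Its sum therefore does not stand for T and NK cells alone. The part of cd4-1 in that sum, and of liver, T and NK cells in the age differences, was not tested.

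Tissue macrophages are long-lived phagocytes whose numbers depend on the receptor Csf1r and its ligands Csf1 and Il34. Their transcriptome also follows signals from the whole animal: glucocorticoids act through a nuclear receptor on a well-known group of target genes, and a cell-autonomous circadian clock, in which BMAL and CLOCK drive Per, Cry, Nr1d and Ror genes that feed back on them, is set by light and, through glucocorticoids and feeding, by the body's rhythm.

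The 63 genes that were higher at 1.5 mpf were also the more abundant of the 2 sets. Their highest group mean had a median of 184 CPM and reached 6540 CPM, and 10 of them had a group mean over 1000 CPM. For the 41 lower genes the median of the highest group mean was 52.5 CPM, and the largest was 290 CPM. In 18 of the 41 lower genes at least 1 of the 6 older control and csf1rDM libraries had no read, and in 21 of the 63 higher genes at least 1 of the 6 libraries at 33 dpf had none. Why these libraries had no read was not tested, and the ratios of the low genes are less certain than those of the abundant ones. Between the ages the higher genes differed by a median of 1.75 on the log2 scale in csf1rDM fish (range 1.02 to 5.41) and 2.49 in control fish (1.05 to 7.52), and the lower genes by -1.72 and -1.98. The ratio exceeded 4 in both genotypes for 19 higher and 12 lower genes. It was larger in control than in csf1rDM fish for 42 of the 63 higher genes and for 22 of the 41 lower genes.

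**Figure D1:**
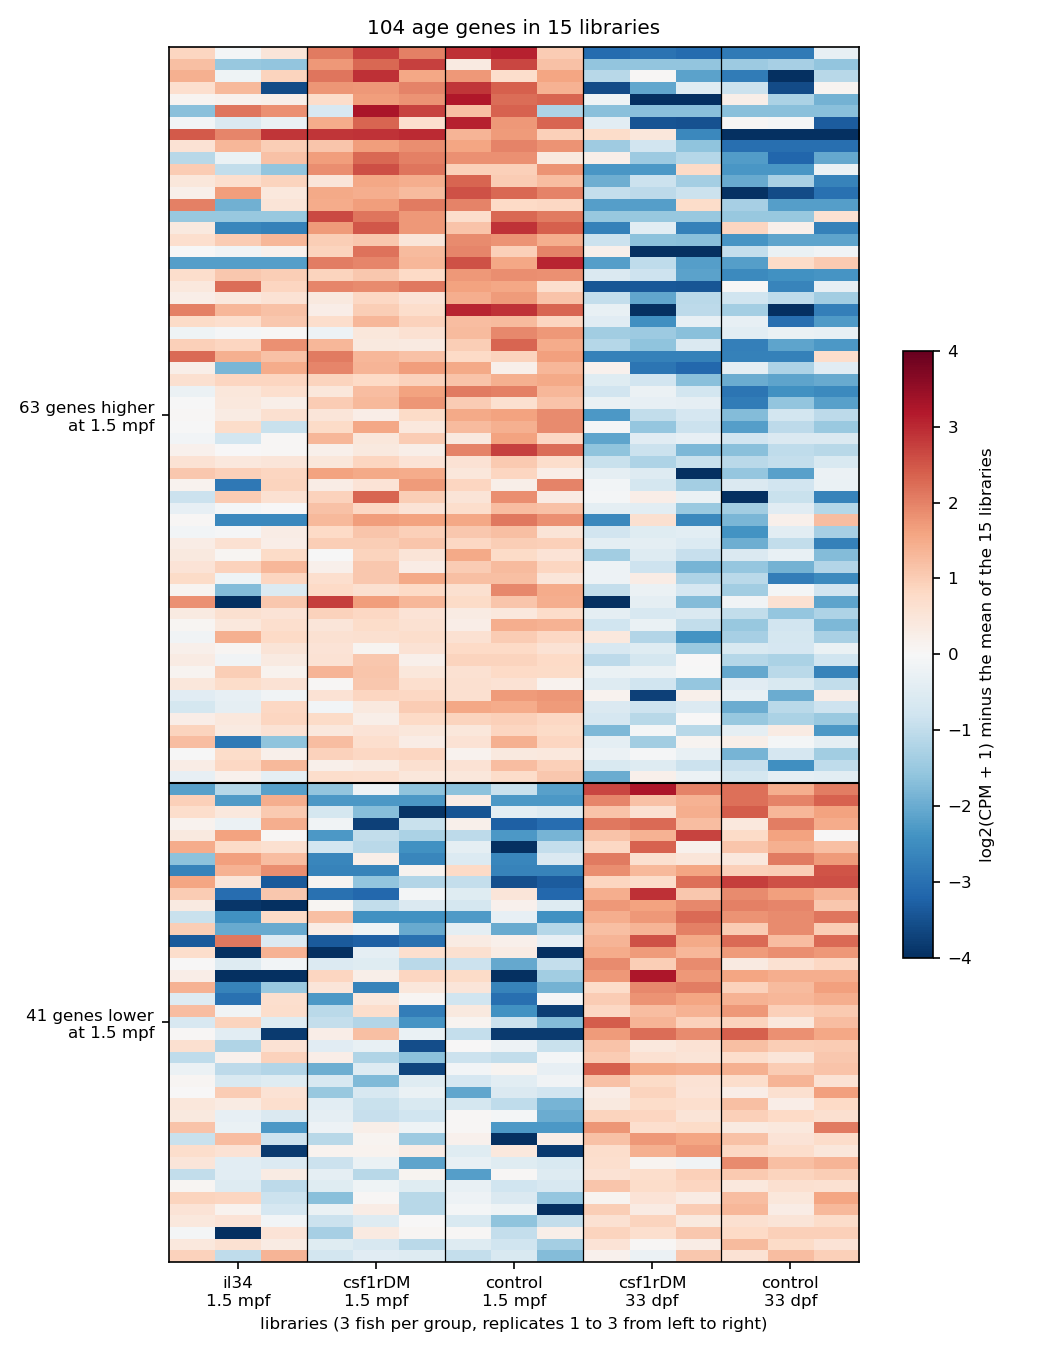
Heat map of the 104 genes (one line each, ordered within each direction by the smaller of the 2 genotypes' age ratios) in 15 libraries, as log2(CPM + 1) minus the gene's mean over the libraries. The 6 control and csf1rDM libraries at 1.5 mpf were selected to be above or below the 6 at 33 dpf, whereas the 3 il34 libraries on the left took no part in the selection and lie between the 2 ages in many lines.

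Of the lists examined, that of glucocorticoid targets and fasting genes held the most members. Of its 13 tested genes, 7 were among the higher genes and none among the lower ones. Among all 17640 tested genes, 63 were higher and 41 lower members. The lists were chosen with earlier results of these data known, so nothing is read from this count. Fkbp5, a co-chaperone of the glucocorticoid receptor and one of its best-known targets, is listed as FKBP5. It was at 1062, 1015 and 1330 CPM in il34 fish, 1033, 1590 and 1206 CPM in csf1rDM fish and 1470, 1527 and 1148 CPM in control fish at 1.5 mpf, against 456, 114 and 498 CPM in csf1rDM fish and 502, 77.6 and 131 CPM in control fish at 33 dpf. All 9 older fish, il34 fish included, were above all 6 younger fish. Tsc22d3, which encodes the glucocorticoid-induced leucine zipper GILZ, was at 727, 947 and 885 CPM in il34 fish, 844, 948 and 777 CPM in csf1rDM fish and 1492, 1632 and 1596 CPM in control fish at 1.5 mpf. At 33 dpf it was at 303, 252 and 102 CPM in csf1rDM fish and 75.9, 82.4 and 86.5 CPM in control fish. Hence the older il34 and csf1rDM fish overlapped each other, older control fish were above both, and younger control fish were below younger csf1rDM fish.

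KLF9, a Krüppel-like factor induced by glucocorticoids, was at 103, 62.9 and 56.1 CPM in il34 fish, 29.5, 49.9 and 40.8 CPM in csf1rDM fish and 208, 189 and 127 CPM in control fish at 1.5 mpf, against 0.0094 to 19.8 CPM in csf1rDM fish and 0 to 9.02 CPM in control fish at 33 dpf. DDIT4, an inhibitor of mTORC1 that glucocorticoids and stress induce, showed the largest age ratio of all in control fish. It was at 622, 437 and 820.5 CPM in il34 fish, 823, 837 and 895 CPM in csf1rDM fish and 289.7, 366 and 219 CPM in control fish at 1.5 mpf, against 189, 156 and 18 CPM in csf1rDM fish and 1.03, 0.182 and 0.585 CPM in control fish at 33 dpf. The 3 younger control fish were thus far below every other fish, and the older control fish were below all older mutants. The ratio of the means was 6.98 in csf1rDM fish and 183 in control fish. The size of the control ratio is uncertain, because the younger control fish had few reads.

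PDK2 (ENSDARG00000059054), a kinase that restrains pyruvate dehydrogenase and so spares glucose in fasting, was at 369, 331 and 334 CPM in il34 fish, 378, 424 and 379 CPM in csf1rDM fish and 1290, 2169 and 1525 CPM in control fish at 1.5 mpf. At 33 dpf it was at 106, 179 and 93.7 CPM in csf1rDM fish and 102, 161 and 151 CPM in control fish. The younger genotypes overlapped, and the older control fish were separate from both older mutants. A further PDK2 gene (ENSDARG00000020876) was not a member, with an age difference of -0.41 on the log2 scale (edgeR adjusted p = 0.998) over both genotypes. CEBPD, a transcription factor of the acute response, was at 14.6, 26.7 and 74.3 CPM in il34 fish, 106, 163 and 134 CPM in csf1rDM fish and 119, 119.6 and 42.9 CPM in control fish at 1.5 mpf, against 11.4 to 38.9 CPM in csf1rDM fish and 2.73 to 7.14 CPM in control fish at 33 dpf. IGFBP1, an insulin-like growth factor binding protein raised by fasting and glucocorticoids, was at 134, 43.2 and 92.5 CPM in il34 fish, 219.7, 381 and 145 CPM in csf1rDM fish and 164, 80.2 and 148 CPM in control fish at 1.5 mpf, against 10.2 to 50.1 CPM in csf1rDM fish and 0 to 22.0 CPM in control fish at 33 dpf. For both genes 1 or more il34 fish overlapped the younger range. IGFBP1 is made mainly by the liver. The sum of liver markers was at 305 to 3836 CPM in older and 5.10 to 36.6 CPM in younger control fish. In csf1rDM fish, whose older group had the highest IGFBP1 mean, the sum was at 29.1 to 61.7 CPM and 1.78 to 37.9 CPM. The part of liver transcripts in the IGFBP1 difference was not tested.

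The listed genes that were not among the 104 fell short of the rule in the same 12 fish, so that their age differences below are also a description of what the rule left out and not independent of it. Across all 17640 genes tested with edgeR's quasi-likelihood method and Benjamini-Hochberg adjustment over both genotypes, 0.624% were called higher and 0.193% lower at 1.5 mpf at an adjusted p of 0.05. The same fit called 37 of the 63 higher and 5 of the 41 lower genes, from which nothing is read. Of the 6 other tested genes of the glucocorticoid and fasting list, 1 passed: TXNIP (ENSDARG00000036107), an inhibitor of glucose uptake, was higher at 1.5 mpf by 1.35 on the log2 scale (SE 0.18, edgeR adjusted p = 0.00219). Sgk1 (log2 fold change 1.93, edgeR adjusted p = 0.272) and both PER1 genes (0.49, adjusted p = 0.614, and 0.55, adjusted p = 0.974) did not pass. PCK1 had the largest difference of the 6, 7.3 (edgeR adjusted p = 0.263), and did not pass either. It was at 6.24, 18.3 and 14.0 CPM in csf1rDM fish and 160, 27.9 and 0.704 CPM in control fish at 1.5 mpf. At 33 dpf it was at 1.68, 0 and 13.7 CPM in csf1rDM fish and had no read in control fish. The median over the 6 genes was 0.95, against 0.03 over all genes. By genotype it was 0.19 with no call in csf1rDM fish, where none had an unadjusted p under 0.05 in edgeR and DESeq2 called 0, and 2.28 with 1 call in control fish. TXNIP itself differed by 0.52 (SE 0.26, edgeR adjusted p = 0.469) in csf1rDM fish and 2.17 (SE 0.27, adjusted p = 0.0012) in control fish. TXNIP was at 2867 to 3151 CPM in csf1rDM fish and 3364 to 4399 CPM in control fish at 1.5 mpf, against 1719 to 2669 CPM in csf1rDM fish and 595 to 1424 CPM in control fish at 33 dpf, and the il34 fish were at 2112 to 2707 CPM.

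**Figure D2:**
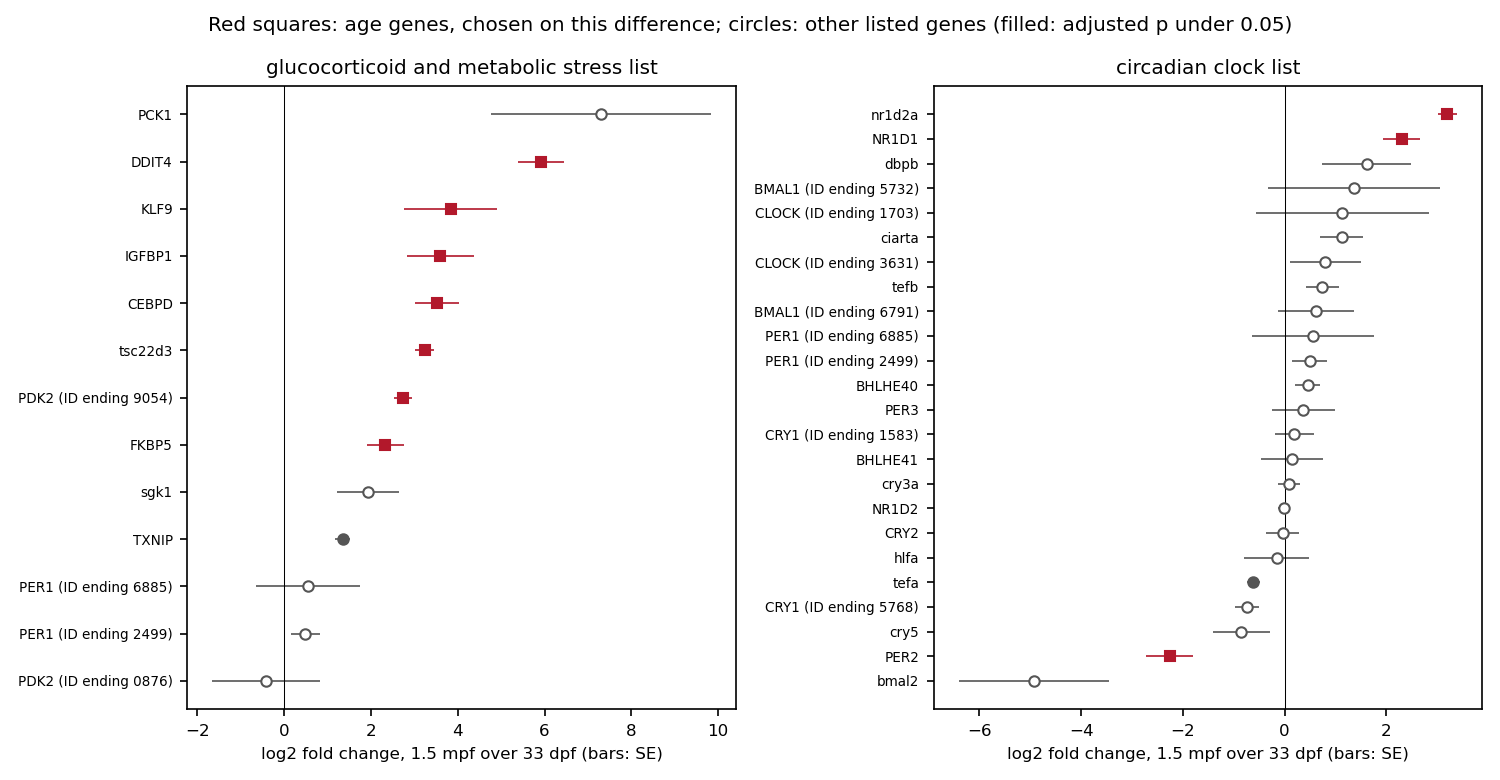
Age difference (log2 fold change at 1.5 mpf over 33 dpf, control and csf1rDM fish together, with its SE as bars) of the tested genes on the glucocorticoid and metabolic stress list and on the circadian clock list. Red squares are age genes, chosen on this difference; of the other genes (circles) only TXNIP and tefa passed an adjusted p of 0.05 (filled). PER1 genes stand on both lists.

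Clock genes moved in both directions. Of 24 tested genes on the clock list, 3 were members: nr1d2a and NR1D1, which encode REV-ERB nuclear receptors, the repressors of the loop, were higher, and PER2 was lower. The lower member rorab is not on that list and belongs to the same feedback loop. Nr1d2a was at 557, 706 and 870.1 CPM in il34 fish, 695, 729.5 and 487 CPM in csf1rDM fish and 1297, 1201 and 959.9 CPM in control fish at 1.5 mpf, against 192, 110.5 and 109 CPM in csf1rDM fish and 67.0, 80.0 and 80.6 CPM in control fish at 33 dpf. All 9 older fish stood well above the younger ones, and older control fish stood above the older mutants. NR1D1 was at 225, 118 and 241 CPM in il34 fish, 209.9, 282 and 381 CPM in csf1rDM fish and 308, 304 and 187 CPM in control fish at 1.5 mpf, against 114, 163 and 55.4 CPM in csf1rDM fish and 61.8, 18.6 and 21.6 CPM in control fish at 33 dpf.

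The gene PER2, a light-induced repressor of the clock in zebrafish, went the other way. It was at 39.0, 21.7 and 20.1 CPM in il34 fish, 11.2, 32.4 and 2.73 CPM in csf1rDM fish and 42.5, 50.5 and 36.4 CPM in control fish at 1.5 mpf, against 249.8, 134 and 128 CPM in csf1rDM fish and 127, 95.5 and 103 CPM in control fish at 33 dpf. All 9 older fish were below all 6 younger ones. The gene rorab, a ROR nuclear receptor that acts on the same promoter elements as the REV-ERBs, was at 93.8, 64.1 and 84.4 CPM in il34 fish, 62.4, 65.8 and 43.1 CPM in csf1rDM fish and 49.97, 21.5 and 47.5 CPM in control fish at 1.5 mpf, against 345, 183 and 342 CPM in csf1rDM fish and 119.6, 141 and 164 CPM in control fish at 33 dpf. A further REV-ERB gene on the clock list, NR1D2 (ENSDARG00000009594), was not a member, with an age difference of -0.01 on the log2 scale (SE 0.12, edgeR adjusted p = 1) over both genotypes. That value averages unlike changes. NR1D2 was at 210 to 243 CPM in csf1rDM fish and 222 to 329 CPM in control fish at 1.5 mpf. At 33 dpf it was at 302 to 363 CPM and 206 to 252 CPM. The ages thus overlapped in control fish, whereas older csf1rDM fish were below all younger ones.

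Further members included NOCT, which encodes nocturnin, a rhythmic gene in mice. It was at 18.2, 28.3 and 0 CPM in il34 fish, 38.6 to 46.3 CPM in csf1rDM fish and 30.1 to 85.2 CPM in control fish at 1.5 mpf, against 0 to 7.6 CPM in csf1rDM fish and 0 to 11.9 CPM in control fish at 33 dpf. Crema, a cAMP-responsive modulator, was at 46.0 to 69.7 CPM in il34 fish, 53.3 to 76.4 CPM in csf1rDM fish and 129 to 169 CPM in control fish at 1.5 mpf, against 8.21 to 27.4 CPM in csf1rDM fish and 12.5 to 26.1 CPM in control fish at 33 dpf. Of 21 other tested clock genes, which include the BMAL, CLOCK, CRY and further PER genes, 1 passed the age test: tefa, a PAR-type leucine zipper factor, was lower at 1.5 mpf by -0.62 on the log2 scale (SE 0.13, edgeR adjusted p = 0.0482). In csf1rDM fish its difference was -1.05 (SE 0.19, edgeR adjusted p = 0.0385) and in control fish -0.18 (SE 0.18, adjusted p = 0.986). It lay at 325 to 350 CPM in csf1rDM fish and 408 to 564 CPM in control fish at 1.5 mpf, against 548 to 839.7 CPM in csf1rDM fish and 588 to 689 CPM in control fish at 33 dpf. By CPM the ages thus did not overlap in control fish either. The fold changes use TMM scaling factors and these CPM do not. With library size only, the median of all genes moved by -0.22 for age in control fish. By genotype the median of the 21 genes was -0.28 with 1 call in csf1rDM fish and 0.66 with no call in control fish. DESeq2 called 3 and 2 of them. The whole clock list, members included, summed to 2369 to 3021 CPM in csf1rDM fish and 3705 to 4378 CPM in control fish at 1.5 mpf. At 33 dpf the sums were 2745 to 3191 CPM and 2189 to 2417 CPM. The test over both genotypes thus averaged unlike changes. In that test, leaving out single fish reduced the number of called clock genes, members included, to 2 for 7 of the 12 fish.

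**Figure D3:**
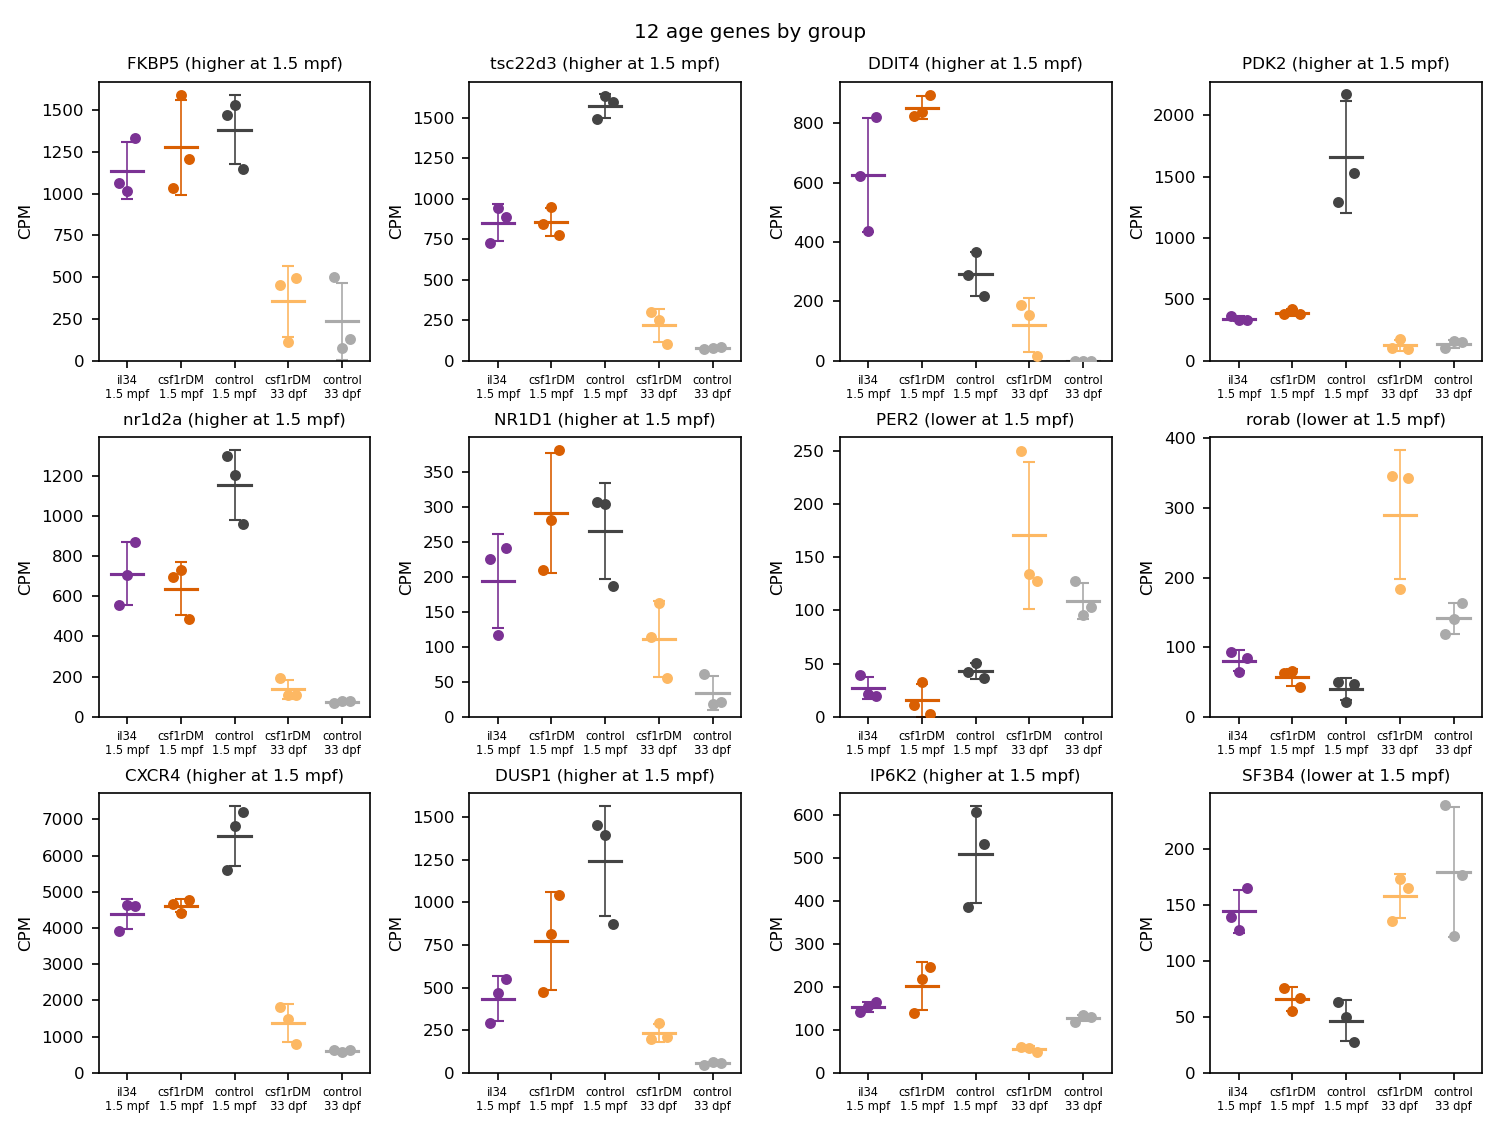
CPM of 12 of the 104 genes in every fish (points), with the group mean (bar) and SD (whiskers, n = 3), at both ages and genotypes and in il34 fish. PDK2 and IP6K2 were lower in both older mutants than in older control fish, whereas DDIT4 was at 219 to 366 CPM in older control fish, below every older mutant; SF3B4 in il34 fish (128 to 165 CPM) lay within the 33 dpf range.

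Of 14 tested immediate early genes 3 were members, DUSP1, BTG2 and JUNB, all higher at 1.5 mpf. DUSP1, a phosphatase that shuts off MAP kinases and a further glucocorticoid target, was at 293, 468 and 549 CPM in il34 fish, 473, 814 and 1044 CPM in csf1rDM fish and 1456, 1398 and 872 CPM in control fish at 1.5 mpf, against 202, 293 and 209 CPM in csf1rDM fish and 44.9, 63.8 and 58.6 CPM in control fish at 33 dpf. BTG2, an antiproliferative gene, was at 139, 164 and 189.6 CPM in il34 fish, 143, 299 and 280.0 CPM in csf1rDM fish and 515, 207 and 242 CPM in control fish at 1.5 mpf, against 25.2 to 55.3 CPM in csf1rDM fish and 15.2 to 41 CPM in control fish at 33 dpf. JUNB, an AP-1 subunit, was at 375, 450.2 and 405 CPM in il34 fish, 281, 569 and 433 CPM in csf1rDM fish and 421, 408 and 297 CPM in control fish at 1.5 mpf, against 91.8 to 188 CPM in csf1rDM fish and 137 to 195 CPM in control fish at 33 dpf. For JUNB (ENSDARG00000074378) the 3 older groups overlapped, whereas for BTG2 the il34 fish were below the older control fish and overlapped the csf1rDM fish. A further JUNB gene (ENSDARG00000104773) was not a member, with an age difference of 1.48 on the log2 scale (edgeR adjusted p = 0.636) over both genotypes. Of 11 other tested immediate early genes none passed the age test in edgeR, while 4 had an unadjusted p under 0.05 and DESeq2 called 3, and their median was 1.48 on the log2 scale. Heat shock genes, which handling of cells can also induce, summed to 1521 to 1903 CPM in il34 fish, 632 to 1167 CPM in csf1rDM fish and 286 to 421 CPM in control fish at 1.5 mpf, against 148 to 556 CPM in csf1rDM fish and 464 to 875 CPM in control fish at 33 dpf. The part of handling was not tested.

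PLK2, a Polo-like kinase induced by stress, had the largest of the smaller ratios, 40.6 in csf1rDM fish and 16.9 in control fish. It was at 14.1, 6.86 and 10.7 CPM in il34 fish, 34.2, 54.6 and 33.0 CPM in csf1rDM fish and 63.1, 69.3 and 16.1 CPM in control fish at 1.5 mpf, against 0, 0.0752 and 0 CPM in csf1rDM fish and 0.172, 0.182 and 5.62 CPM in control fish at 33 dpf. The il34 fish lay between the ages, above every younger fish and below every older one. SESN1, a p53 target that restrains mTORC1, was at 621, 562 and 576 CPM in il34 fish, 566, 749 and 611 CPM in csf1rDM fish and 621, 859.5 and 682 CPM in control fish at 1.5 mpf, against 178 to 222 CPM in csf1rDM fish and 197 to 270.3 CPM in control fish at 33 dpf. This was among the most even differences of the set, with a ratio of 3.09 in csf1rDM fish and 3.17 in control fish. Cdkn1a, the cell cycle inhibitor p21, was far less abundant, at 0.213 to 17.6 CPM in il34 fish, 11.8 to 18.6 CPM in csf1rDM fish and 6.99 to 17.4 CPM in control fish at 1.5 mpf, against 0 to 6.75 CPM in csf1rDM fish and 0 to 0.859 CPM in control fish at 33 dpf.

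Receptors of the immune cell surface included the most abundant gene of the set. CXCR4 (ENSDARG00000041959), the receptor for the chemokine Cxcl12, was at 3918, 4650 and 4619 CPM in il34 fish, 4664, 4418 and 4773 CPM in csf1rDM fish and 5597, 6819 and 7200 CPM in control fish at 1.5 mpf, against 1818, 1494 and 801 CPM in csf1rDM fish and 643, 583 and 624 CPM in control fish at 33 dpf. CCR9, a chemokine receptor best known from gut-homing lymphocytes in mammals, was at 1271, 1599 and 1241 CPM in il34 fish, 2054, 2055 and 2260 CPM in csf1rDM fish and 1848, 2045 and 2012 CPM in control fish at 1.5 mpf, against 788, 799.8 and 705 CPM in csf1rDM fish and 268, 526 and 157 CPM in control fish at 33 dpf. In both genes the il34 fish stood above all younger fish, and in CCR9 below all other older fish. B2m, the light chain of MHC class I, was at 639, 1086 and 740.0 CPM in il34 fish, 1216, 1141 and 1187 CPM in csf1rDM fish and 719, 846 and 864 CPM in control fish at 1.5 mpf, against 550.5, 628 and 527 CPM in csf1rDM fish and 179, 411 and 248 CPM in control fish at 33 dpf.

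Of 8 other tested antigen presentation genes, all outside the 104, 4 passed the age test and were higher at 1.5 mpf. These were cd74a and cd74b, the invariant chains of MHC class II, with log2 fold changes of 0.86 (SE 0.14, edgeR adjusted p = 0.00701) and 0.83 (SE 0.15, adjusted p = 0.0161), the class I gene mhc1zba with 0.80 (SE 0.13, adjusted p = 0.00745) and the activation marker cd83 with 1.58 (SE 0.27, adjusted p = 0.00957). The median over the 8 genes was 0.83, against 0.03 over all genes. Taken by genotype, none of the 8 passed in csf1rDM fish by edgeR, where 3 had an unadjusted p under 0.05 and DESeq2 called 0, and 4 passed in control fish. For cd74a the age difference was 0.22 (SE 0.19, edgeR adjusted p = 0.875) in csf1rDM fish, whose ages overlapped, and 1.5 (SE 0.20, adjusted p = 0.00174) in control fish. Dendritic cells also express such genes, and their markers summed to 999.9 to 1208 CPM in il34 fish, 1294 to 1616 CPM in csf1rDM fish and 586 to 994 CPM in control fish at 1.5 mpf, against 1185 to 1455 CPM in csf1rDM fish and 485.5 to 854 CPM in control fish at 33 dpf. Their part was not tested.

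The remaining genes with a large ratio in both genotypes were mostly of low level. Csrnp1a, a nuclear factor, was at 30.9 to 34 CPM in il34 fish, 48.3 to 102 CPM in csf1rDM fish and 137 to 269 CPM in control fish at 1.5 mpf, against 0 to 25.1 CPM in csf1rDM fish and 6.91 to 33.5 CPM in control fish at 33 dpf. Arl5c, a small GTPase of the ARF family, was at 87.8, 243 and 103 CPM in il34 fish, 222, 210.1 and 186 CPM in csf1rDM fish and 449, 376 and 304 CPM in control fish at 1.5 mpf, against 38.7, 36.4 and 41.8 CPM in csf1rDM fish and 3.95, 5.47 and 8.78 CPM in control fish at 33 dpf. The 4 control and csf1rDM groups of arl5c thus did not overlap at all. Mtmr1b, of the myotubularin family, had no read in any of the 6 younger fish and lay at 0 to 12.9 CPM in il34 fish, 1.04 to 29.4 CPM in csf1rDM fish and 0.352 to 15.2 CPM in control fish at 1.5 mpf. Skib, a SKI-type repressor of SMAD signaling, did not exceed 0.182 CPM in any younger fish and reached 5.87 CPM in il34 fish, 18.8 CPM in csf1rDM fish and 18 CPM in control fish at 1.5 mpf. Leng9 reached 9.15 CPM in il34 fish, 28.6 CPM in csf1rDM fish and 16.3 CPM in control fish at 1.5 mpf, against 7.67 CPM in csf1rDM fish and 3.16 CPM in control fish at 33 dpf.

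On the lower side, several of the genes with the largest ratios are known from DNA replication, repair or mitosis, and most of them were of low level. Espl1, separase, which cleaves cohesin at anaphase, was at 0, 1.07 and 0 CPM in il34 fish, 0.52, 2.89 and 0.47 CPM in csf1rDM fish and 0.456, 1.45 and 0 CPM in control fish at 1.5 mpf, against 27.7, 41.3 and 17.0 CPM in csf1rDM fish and 19.9, 11.5 and 17.6 CPM in control fish at 33 dpf. All 9 older fish were below all younger ones. MYBL2, a transcription factor of cycling cells, was at 32.9, 14.8 and 0.113 CPM in il34 fish, 2.82 to 11.3 CPM in csf1rDM fish and 0 to 4.79 CPM in control fish at 1.5 mpf, against 18 to 50.8 CPM in csf1rDM fish and 65.6 to 75.3 CPM in control fish at 33 dpf. Mastl, the mitotic kinase Greatwall, was at 0, 15.4 and 22.1 CPM in il34 fish, 0 to 5.92 CPM in csf1rDM fish and 0 to 9.93 CPM in control fish at 1.5 mpf, against 14.4 to 21.8 CPM in csf1rDM fish and 11.3 to 34.9 CPM in control fish at 33 dpf. For both genes the il34 fish were scattered over the ranges of both ages.

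RRM2, the small subunit of ribonucleotide reductase, which makes deoxyribonucleotides for DNA synthesis, was at 64.4, 1.28 and 106 CPM in il34 fish, 0.52, 30.4 and 63 CPM in csf1rDM fish and 62.8, 49.9 and 1.05 CPM in control fish at 1.5 mpf, against 111, 131 and 102 CPM in csf1rDM fish and 132, 148 and 133 CPM in control fish at 33 dpf. The younger fish were even and the older ones scattered widely. Radx, which binds single-stranded DNA at replication forks, was at 8.6, 0.0356 and 12.7 CPM in il34 fish, 0 in all 3 csf1rDM fish and 0 to 5.02 CPM in control fish at 1.5 mpf, against 10.2 to 18.1 CPM in csf1rDM fish and 18.4 to 24.6 CPM in control fish at 33 dpf. Wdr76, a WD-repeat protein linked to DNA damage, was at 0.0711 to 17.6 CPM in il34 fish, 0 to 7.52 CPM in csf1rDM fish and 0 to 11.3 CPM in control fish at 1.5 mpf, against 17.9 to 67.2 CPM in csf1rDM fish and 21.6 to 32.0 CPM in control fish at 33 dpf.

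RRM2 (ENSDARG00000078069) was the only member on the proliferation list. A further RRM2 gene (ENSDARG00000020711) was not a member, with an age difference of -1.25 on the log2 scale (edgeR adjusted p = 0.477). Of the 16 other tested genes of the list 1 passed the age test, PCNA, the sliding clamp of DNA replication. It was lower at 1.5 mpf by -0.82 on the log2 scale (SE 0.17, edgeR adjusted p = 0.0452), and the median of the 16 was -0.59. No gene of the list was called with 7 of the 12 fish left out in turn. By genotype the median of the 16 was -0.40 with no call in csf1rDM fish and -1.08 with 1 call in control fish. Over both genotypes the difference was small for MCM2 (-0.09), mki67 (-0.13) and MCM5 (-0.15), but for both MCM genes it averaged opposite changes. For mki67 it averaged unlike ones. Older control fish were at 173, 93.0 and 186 CPM of mki67, below the 249, 221 and 243 CPM of younger control fish. In csf1rDM fish the ages overlapped, at 131 to 243 CPM and 101 to 210 CPM. In control fish MCM2 was at 143, 170 and 151 CPM at 1.5 mpf, against 827, 371 and 391 CPM at 33 dpf. MCM5 was at 91.2, 53.2 and 44.5 CPM in older control fish, against 355.5, 112 and 132 CPM in younger ones. In csf1rDM fish MCM2 was at 135.5, 302 and 190 CPM at 1.5 mpf, against 52.1, 42.3 and 157 CPM at 33 dpf. In csf1rDM fish MCM5 was higher at 1.5 mpf, at 144, 194 and 141 CPM, against 60.9, 38.4 and 124.5 CPM at 33 dpf. PCNA was at 223 to 317 CPM in csf1rDM fish and 182 to 323 CPM in control fish at 1.5 mpf, against 209 to 359 CPM in csf1rDM fish and 644.5 to 979 CPM in control fish at 33 dpf, and at 599.6 to 797 CPM in il34 fish. The age difference in PCNA was thus visible in control fish and not in csf1rDM fish, whose ranges overlapped, and il34 fish lay above the other older fish. Over the whole proliferation list the summed level was 2511 to 3157 CPM in il34 fish, 1277 to 1439 CPM in csf1rDM fish and 938 to 1475 CPM in control fish at 1.5 mpf, against 1444 to 1752 CPM in csf1rDM fish and 2514 to 3896 CPM in control fish at 33 dpf. Of its 16 genes outside the 104, 1 was higher in il34 than in control fish at 1.5 mpf.

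Other lower members act in RNA processing. PRPF4, a splicing factor of the U4/U6 particle, was at 13.5, 10.3 and 34.8 CPM in il34 fish, 0 to 10.9 CPM in csf1rDM fish and 0.363 to 14.2 CPM in control fish at 1.5 mpf, against 29.7 to 62.2 CPM in csf1rDM fish and 16.8 to 53.0 CPM in control fish at 33 dpf. SF3B4, a subunit of the U2 splicing particle, was at 139, 128 and 165 CPM in il34 fish, 76.0, 54.9 and 66.7 CPM in csf1rDM fish and 63, 49.8 and 27.3 CPM in control fish at 1.5 mpf, against 135, 173 and 165 CPM in csf1rDM fish and 239, 122 and 177 CPM in control fish at 33 dpf. The il34 fish were above all other older fish and inside the younger range. TPRKB, a subunit of the complex that modifies tRNA, was at 0.956, 17.9 and 13.4 CPM in il34 fish, 0 to 6.2 CPM in csf1rDM fish and 0 to 3.19 CPM in control fish at 1.5 mpf, against 7.52 to 24.4 CPM in csf1rDM fish and 7.22 to 24.8 CPM in control fish at 33 dpf.

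Of the other lower genes with a large ratio, msto1, a regulator of mitochondrial shape, was at 29.2 to 44.8 CPM in il34 fish, 0.47 to 12.8 CPM in csf1rDM fish and 1.03 to 16.2 CPM in control fish at 1.5 mpf, against 32.9 to 60.2 CPM in csf1rDM fish and 55.0 to 118 CPM in control fish at 33 dpf. Proser1 was at 29.2, 0.605 and 0.226 CPM in il34 fish, 11.1 to 23.8 CPM in csf1rDM fish and 13.6 to 25.5 CPM in control fish at 1.5 mpf, against 71.7 to 87.9 CPM in csf1rDM fish and 49.4 to 95.5 CPM in control fish at 33 dpf. DESI1, a protease acting on SUMO, reached 8.13 CPM in il34 fish, 11.4 CPM in csf1rDM fish and 3.27 CPM in control fish at 1.5 mpf, against a lowest value of 13.9 CPM in csf1rDM fish and 18 CPM in control fish at 33 dpf. The gene wu:fi42h12 was at 5.46, 13.9 and 4.07 CPM in il34 fish and did not exceed 1.44 CPM in any other older fish, against 3.98 to 30.9 CPM in the 6 younger fish.

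At the threshold, S1PR2 (smaller ratio 2.03) and gbp (2.07) were just inside the rule on the higher side, and hnrnpa0b (1.97) and CCNG2 (1.94) just outside it. On the lower side GCLC (2.02) and TAF5 (2.02) were just inside, and cep43 (1.99) and slc12a2 (1.98) just outside. The set therefore has no natural edge. With CPM scaled by TMM factors, the rule found 75 higher and 29 lower genes, of which 92 were among the 104, so that the balance between the directions depends on the scaling.

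**Figure D4:**
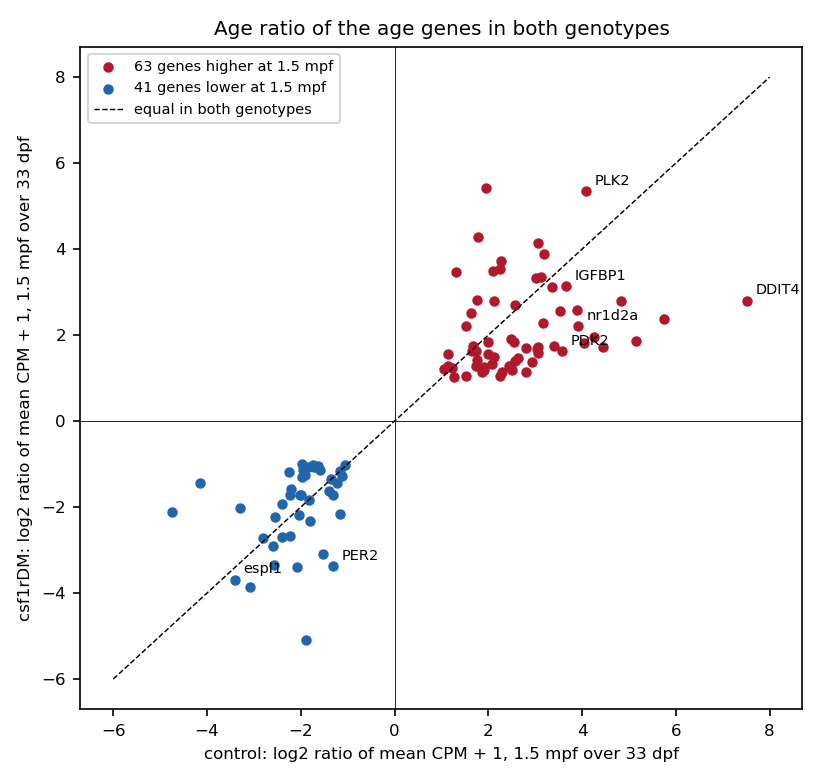
Age ratio (log2 of mean CPM + 1 at 1.5 mpf over 33 dpf) of the 104 genes in csf1rDM fish (vertical axis) against control fish (horizontal axis). The empty middle of the plot comes from the rule; DDIT4, with a ratio of 183 in control fish and 6.98 in csf1rDM fish, lies farthest to the right.

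On the log2(CPM + 1) scale, the mean of the il34 fish lay at least 50% of the way from the younger to the older mean for 42 of the 63 higher genes. The same held for 24 of the 41 lower genes. The 63 higher genes summed to 16602, 18928 and 19973 CPM in il34 fish, 21615, 24232 and 23014 CPM in csf1rDM fish and 27169, 31780 and 28591 CPM in control fish at 1.5 mpf, against 8097, 7562 and 6205 CPM in csf1rDM fish and 4509, 4974 and 4076 CPM in control fish at 33 dpf. The 41 lower genes summed to 1398, 1026 and 1252 CPM in il34 fish, 702, 752 and 636 CPM in csf1rDM fish and 854, 662 and 530.1 CPM in control fish at 1.5 mpf, against 2598, 2511 and 2379 CPM in csf1rDM fish and 2673, 2323 and 2444 CPM in control fish at 33 dpf. By both sums the 3 il34 fish were outside the range of the other older fish and lay between the ages. A place short of the older fish is favored by the selection itself, because the older control and csf1rDM fish were chosen for their extreme values and the il34 fish were not. A place beyond the younger fish is favored as well, because the younger fish were chosen for lying at the other extreme in these genes.

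All 3 il34 fish were above all 6 younger fish for 35 of the 63 higher genes. Over all tested genes, which were not selected on those 6 fish, the share was 2.9%. They were below all 6 for 14 of the 41 lower genes, and over all tested genes the share was 2.7%. Because the selection used the younger fish, nothing is read from these counts against the shares. No il34 fish was beyond the younger range for 8 higher and 4 lower genes. Expressed as a share of the distance between the mean of the 6 younger and the mean of the 6 older fish on the log2(CPM + 1) scale, the il34 mean lay at a median of 67.8% for the higher genes (quartiles 43.0% and 87.6%) and 62.5% for the lower genes (quartiles 30.5% and 90%). It exceeded the older mean in 7 higher and 8 lower genes. The genes at or near the older mean included DDIT4 (105.5%), JUNB (105.0%), KLF9 (95.2%), PIK3R1 (92.6%, a PI3 kinase subunit), FKBP5 (91.4%), nr1d2a (91.0%) and PER2 (90%). Among the genes near the younger mean were TAF5 (9.1%), SF3B4 (12.5%), GCLC (15%) and msto1 (21.8%) on the lower side. Nearer the younger than the older mean on the higher side were skib (26.3%), leng9 (29.7%) and NOCT (32.0%), and 6 higher genes were beyond the younger mean in the other direction. Of these, F10, a coagulation factor made by the liver, and CA8, of the carbonic anhydrase family, had no read in any il34 fish, against 10.5 to 17.8 CPM and 8.46 to 16.8 CPM in csf1rDM fish and 12.4 to 36.7 CPM and 3.65 to 13.2 CPM in control fish at 1.5 mpf.

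**Figure D5:**
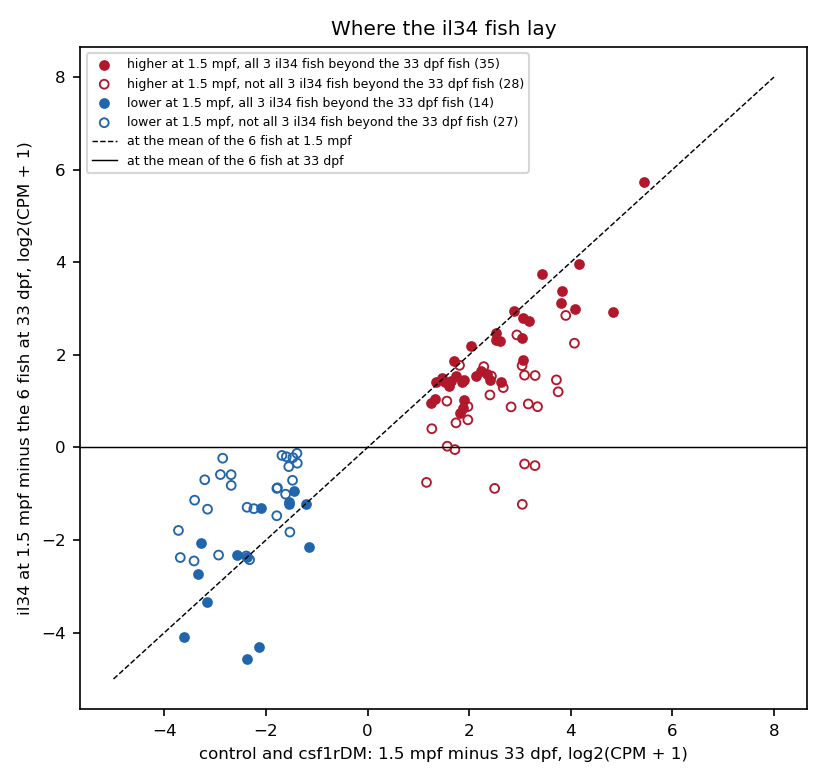
Difference of the 3 il34 fish from the mean of the 6 younger fish (vertical axis) against the age difference of control and csf1rDM fish (horizontal axis), both in log2(CPM + 1), for the 104 genes. Filled points are the 35 higher and 14 lower genes in which all 3 il34 fish were beyond all 6 younger fish; most points lie between the horizontal line and the diagonal.

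Against the younger control fish, 19 of the 63 higher genes were higher in il34 fish by edgeR's quasi-likelihood test (adjusted p under 0.05), compared with 0.187% of all tested genes, and none of the 41 lower genes was lower, compared with 0.068%. Of those 41 genes, 5 had an unadjusted p under 0.05, and the median was -0.91 on the log2 scale. Genotype and age cannot be told apart in this comparison, and the younger control fish were among those used for the selection. Among the called genes with reads in every library, the largest differences were DDIT4 with 9.99 (SE 0.89, adjusted p = 0.000148), arl5c with 4.72 (SE 0.44, adjusted p = 0.000181), tsc22d3 with 3.51 (SE 0.32, adjusted p = 0.000164), nr1d2a with 3.35 (SE 0.27, adjusted p = 7.92e-05), DUSP1 with 3.09 (SE 0.34, adjusted p = 0.000969) and CXCR4 with 2.96 (SE 0.24, adjusted p = 7.92e-05). These 6 kept an adjusted p under 0.05 whichever fish was left out. The size of the DDIT4 difference rests on few reads in the younger control fish. With only the groups compared in the fit, arl5c lost its call (edgeR adjusted p = 0.0708). The choice took genes that were low in the younger control fish, which favors calls in this direction, so nothing is read from their number.

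At the same age of 1.5 mpf, 3 of the 63 higher genes were lower in il34 than in control fish, compared with 0.323% of all tested genes, and 1 of the 41 lower genes was higher, compared with 0.363%. PDK2 was lower by -2.39 on the log2 scale (SE 0.28, edgeR adjusted p = 0.00333). IP6K2, an inositol hexakisphosphate kinase, was at 142, 156 and 165 CPM in il34 fish, against 386, 607 and 533 CPM in control fish, a log2 fold change of -1.84 (SE 0.24, adjusted p = 0.0044). Both calls held whichever of the 6 fish was left out. DUSP1, lower by -1.62 (SE 0.32, adjusted p = 0.0444), lost its call with any 1 of the 6 fish left out, and SF3B4, higher by 1.5 (SE 0.31, adjusted p = 0.0494), with 5 of the 6. The medians were -0.94 over the higher genes and 0.89 over the lower genes, against -0.12 over all genes, and both are in the direction that the selection favors.

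The csf1rDM fish, compared with the same control fish, differed at 1.5 mpf in 2 of the 63 higher genes, both lower, compared with 1.2% of all tested genes, and in none of the 41 lower genes, of which 3 had an unadjusted p under 0.05 in edgeR. The 2 were again PDK2, with -2.11 (SE 0.28, edgeR adjusted p = 0.00186), and IP6K2, at 140.1, 219 and 247 CPM in csf1rDM fish, with -1.36 (SE 0.23, adjusted p = 0.00926). IP6K2 lost its call with 2 of the 6 fish left out in turn, and PDK2 with none. Since both mutants were set against the same 3 control fish, the calls are not independent. The control and csf1rDM fish also took part in the choice of the genes, so nothing is read from the counts against the shares. Between the mutants, 1 higher gene was called, compared with 0.867% of all tested genes. The gene rgs13a, a regulator of G protein signaling, was at 345, 418 and 579 CPM in csf1rDM fish, against 166, 226 and 197 CPM in il34 fish (log2 fold change 1.27, SE 0.29, edgeR adjusted p = 0.0454), and that call was lost with any 1 of the 6 fish left out.

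At 33 dpf 15 of the 104 genes were called between the genotypes. The sorted pools also differed in cell markers: metaphocyte genes, of mpeg1-positive cells of the skin, summed to 2379 to 3195 CPM in csf1rDM fish, against 750.9 to 1086 CPM in control fish, and complement C1q genes to 19.6 to 208 CPM in csf1rDM fish, against 987 to 1830 CPM in control fish. At 1.5 mpf metaphocyte genes summed to 433 to 668 CPM in il34 fish, 2650.0 to 3955 CPM in csf1rDM fish and 724 to 1548 CPM in control fish, and C1q genes to 978 to 1203 CPM in il34 fish, 28.9 to 62.3 CPM in csf1rDM fish and 1934 to 2611 CPM in control fish. The part of this makeup in the genotype differences was not tested. Of the 63 higher genes, 13 were already higher in csf1rDM than in control fish, compared with 1.71% of all tested genes, and 2 were lower, compared with 1.34%. The fish compared here were among those that chose the genes, so nothing is read from the counts against the shares. None of the 41 lower genes was called in edgeR, 2 had an unadjusted p under 0.05, and their median was 0.14 on the log2 scale. DDIT4 was higher by 7.72 (SE 0.83, edgeR adjusted p = 0.000531), although its control level rests on few reads. The gene arl5c was higher by 2.87 (SE 0.41, adjusted p = 0.00258), DUSP1 by 2.27 (SE 0.33, adjusted p = 0.00294), rgs13a by 1.99 (SE 0.30, adjusted p = 0.00339) and CXCR4 by 1.35 (SE 0.23, adjusted p = 0.00645), all whichever of the 6 fish was left out. The gene tsc22d3, with 1.62 (SE 0.30, adjusted p = 0.0106), lost its call with 2 of the 6, CCR9, with 1.46 (SE 0.31, adjusted p = 0.0226), with 4, and nr1d2a, with 1.04 (SE 0.25, adjusted p = 0.0371), with 5. The other higher calls were si:dkey-37f18.3, PIK3R1, tuft1a, b2m and tamalin.

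Lower in csf1rDM fish at 33 dpf were IP6K2, at 60.1, 58.2 and 49.3 CPM against 119, 134 and 129.6 CPM in control fish (log2 fold change -1.0, SE 0.23, edgeR adjusted p = 0.0329, lost with any 1 fish left out), and the zinc finger gene zbtb21, at 0, 0.0188 and 0 CPM against 9.71, 0.729 and 7.61 CPM in control fish. Si:dkey-37f18.3 stood at 2.08, 3.76 and 1.69 CPM in csf1rDM fish and had no read in the control fish. When only the 6 fish of this age were fitted, 2 of the 104 genes were called in place of 15. Beside this, 5 of the 8 antigen presentation genes outside the set were higher in csf1rDM fish at 33 dpf, with a median of 1.37.

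Over both ages together, 7 of the 63 higher genes and 1 of the 41 lower genes were higher in csf1rDM fish, compared with 2.7% of all tested genes, and 3 higher genes were lower, compared with 3.17%. The fish compared were those that chose the genes, so nothing is read from these counts against the shares. DDIT4 was higher by 4.62 (SE 0.51, edgeR adjusted p = 0.000175), rgs13a by 1.21 (SE 0.21, adjusted p = 0.00363) and rorab, the lower gene, by 0.86 (SE 0.24, adjusted p = 0.0497). IP6K2 was lower by -1.18 (SE 0.16, adjusted p = 0.000881) and PDK2 by -1.02 (SE 0.19, adjusted p = 0.00593). The call for rorab was lost with 10 of the 12 fish left out in turn, and the other 4 with none.

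By the interaction term, the age effect on the log2 scale was smaller in csf1rDM than in control fish for 8 of the 63 higher genes (0.125% of all tested genes were called in that direction) and larger for 1 (0.113%). The term is built from the 12 fish and the age differences that chose the genes, so it is given as a description and nothing is read from the counts against these shares. None of the 41 lower genes was called in edgeR, 3 had an unadjusted p under 0.05. The smaller ones were nr1d2a, arl5c, DDIT4, CXCR4, PDK2, tsc22d3, si:dkey-37f18.3 and DUSP1, and the larger one was zbtb21. For nr1d2a, tsc22d3, CXCR4, DUSP1, arl5c and DDIT4 the csf1rDM mean was above the control mean at 33 dpf, while PDK2 was at the same level in both genotypes at 33 dpf and differed at 1.5 mpf only. At 1.5 mpf all control fish were also above all csf1rDM fish for nr1d2a, tsc22d3, CXCR4 and arl5c, although edgeR called none of these there. The genotypes overlapped at that age for DUSP1, and for DDIT4 the control fish were lower. Fitting only these 4 groups left 1 of the 9 calls.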

How the data were processed

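The authors sorted mpeg1-GFP+ cells from single fish and made full-length cDNA libraries with SMART-seq V4, read in pairs of 75 bases. Their processing notes name CASAVA 1.8, cutadapt, STAR 2.5.4b, Cufflinks 2.2.1, HTSeq 0.11.0 and edgeR, and the build GRCz10. The deposited values are read counts per gene, without normalization, in 15 columns. Symbols were taken from a table of gene IDs, which matched 27000 of 35117. The strand setting of the counting is not given in the sources used here.

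The members and gene lists were chosen with earlier results of these data known. Genes passing filterByExpr (17640, the 104 included) were fitted over all 15 libraries with TMM factors and edgeR 4.0.16's robust quasi-likelihood method in R 4.3.3, with Benjamini-Hochberg adjustment over all genes at 0.05. The text names, per direction, the 12 members with the largest smaller ratio, members on a list, those called between genotypes (the 6 or 5 with the smallest adjusted p in 2 of the contrasts), and the genes next to the threshold; others were chosen after their values were seen. Lists covered leukocyte and tissue markers and response pathways. DESeq2 1.42.0, other scalings, filters, thinned counts and left-out fish served as alternatives, and the fit was tested on simulated data. Where nothing says that fish came from separate crosses, p-values measure the spread between these fish only.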

Additional observations from a re-analysis of the deposited data

Results flagged for a closer look

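In 9 of the 63 genes that were higher at 1.5 mpf, the difference between the ages itself differed between the genotypes by edgeR's interaction test (adjusted p under 0.05). On the log2 scale, the age effect in csf1rDM fish minus that in control fish was -1.92 for nr1d2a (SE 0.35, edgeR adjusted p = 0.0455), -3.77 for arl5c (SE 0.55, adjusted p = 0.0282), -6.20 for DDIT4 (SE 0.96, adjusted p = 0.0282), -1.88 for CXCR4 (SE 0.32, adjusted p = 0.0387), -2.18 for PDK2 (SE 0.38, adjusted p = 0.0428), -2.53 for tsc22d3 (SE 0.42, adjusted p = 0.0349) and -2.97 for DUSP1 (SE 0.45, adjusted p = 0.0282). For si:dkey-37f18.3 it was -8.81 and for zbtb21 8.77, fitted values that depend on the prior count, because the control fish at 33 dpf had no read of the first and the csf1rDM fish at 33 dpf almost none of the second. The value for DDIT4 is also uncertain in size, because control fish at 33 dpf were at 0.182 to 1.03 CPM. Its mean CPM went from 121 to 851.5 in csf1rDM fish and from 0.6 to 291.8 in control fish, so its smaller age effect holds on the log2 scale only. Each of the 9 calls was lost with at least 5 of the 12 fish left out in turn, that of si:dkey-37f18.3 with all 12. The 12 fish of this test are those that chose the genes, so the differences are not independent of the choice.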

How the results depend on the processing

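Of the 104 genes, 4 were called for il34 minus control at 1.5 mpf, 2 to 4 with single fish left out (2 without control replicate 2 or 3 or il34 replicate 3) and 18 by DESeq2. For csf1rDM minus control at 33 dpf the count was 7 to 12 with single fish left out (9 and 7 without control replicates 1 and 3) and 2 with only the groups compared. At 1.5 mpf it was 1 to 2 with fish left out (1 without control replicate 2 or 3), 4 with only the groups compared and 7 by DESeq2, and over both ages 7 to 11 (7 without control replicate 3 at 33 dpf or csf1rDM replicate 2 at 1.5 mpf) and 18 by DESeq2. For csf1rDM minus il34 the single call gave way to 0 under upper-quartile normalization, library size only, the replicate block and only the groups compared, to 10 by DESeq2, and to 0 to 3 with fish left out. For il34 fish against younger control fish 12 to 20 were called with fish left out (12 without control replicate 3 or il34 replicate 2), 7 with only the groups compared and 38 by DESeq2. The number of genes under the rule was 119 to 144 with single fish left out and 58 at a ratio of 3. These counts, and those of the interaction below, stand without the share of all tested genes called under the same setting, so nothing is read from them. Why DESeq2 called more was not tested.

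Replicate numbers did not pair the fish (correlations of same-numbered deviations between -0.052 and 0.054); with the replicate block the interaction calls became 0 in place of 9. They were 0 to 7 with single fish left out, 5 with library size only, 1 with only the groups compared and 15 by DESeq2; these fits, those of the listed genes and of single genes were chosen after seeing the data. Of 61 single calls refitted 973 times, 693 kept and 280 lost the threshold, and none reversed. With library size only, the median of all genes moved by -0.18 at 33 dpf for csf1rDM minus control, by 0.11 for il34 minus control at 1.5 mpf, and by -0.13 for age over both genotypes, and the share of lower calls was 62.2% in place of 43.9%, 33.1% in place of 47.1% and 45.0% in place of 23.6%.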
